A study of Mus musculus with 4 samples.

Results

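The genes described here encode the receptors and ligands of the platelet-derived growth factor (PDGF) family. They are the receptors Pdgfra and Pdgfrb, the receptor-like gene Pdgfrl, the ligands Pdgfa, Pdgfb, Pdgfc and Pdgfd, and Cspg4, which encodes the NG2 proteoglycan of mural and glial precursor cells. The members were chosen by name, and all 8 were among the 18619 genes of the file. Stromal cells sorted from mouse small intestine were sequenced cell by cell with a droplet kit for 3-prime ends, and the mRNA molecules of each gene were counted. Among the 4 samples of the series (WT, LATS1/2 KO 1w and LATS1/2 KO 2w), the results below come from LATS1/2 KO 1w, and the other 3 samples were not analysed here. The mice were adult C57BL/6J animals with floxed alleles of Lats1 and Lats2, a tamoxifen-inducible Cre-ERT2 under the control of Pdgfrb and a tdTomato reporter, and the reporter-positive cells were sorted by FACS at 1 week. The deletion therefore applied only to cells in which the Pdgfrb promoter was active, and the sort kept only cells of that kind. Before sorting, the muscle layer of the gut had been removed, and cells carrying CD45, CD326 or CD31 had been depleted. With a single library no test between groups was possible, and levels were compared among cell types of that library.

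PDGFRα and PDGFRβ are receptor tyrosine kinases that pair up when a dimeric ligand binds. PDGF-A and PDGF-C act mainly on PDGFRα, PDGF-B on both receptors and PDGF-D mainly on PDGFRβ. PDGF-C and PDGF-D are secreted with a CUB domain that a protease must remove before they can bind. In most tissues endothelial cells make PDGF-B and thereby draw PDGFRβ-positive mural cells to vessels. In the gut, epithelial PDGF-A acts on fibroblasts under the epithelium, some of which carry very high PDGFRα and secrete BMP and Wnt ligands. LATS1 and LATS2 are kinases that restrain the transcriptional co-activators YAP and TAZ, and Amotl2 is one of their known target genes.

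The library held 4108 cells with 46054627 unique molecular identifiers (UMIs), a median of 10726 per cell and a range of 1965 to 35727. No barcode occurred more than once. Levels are in CPM (UMIs of the gene for every 1000000 UMIs in the named cells), followed in brackets by an exact 95% Poisson interval, and ratios carry an exact conditional binomial interval. Where no UMI was counted, the limit given is that of 3 counts in the named cells, which is lower than the upper end of the exact interval. All intervals and limits cover counting error only and not the spread between mice. Levels of different genes are not compared with each other, because a 3-prime count depends on the transcript. Lats1 was counted at 14.2 CPM and Lats2 at 53.5 CPM in the library. Where the deleted exons lie relative to the 3-prime reads is not given in the sources used here, so these levels check nothing about the deletion. Seurat clustering, with the members and 42 genes of the PDGF pathway kept out of the variable genes, gave 9 clusters. The vFB1-2 list held 4 villus fibroblast markers (Adamdec1, Col15a1, Shisa3 and Cp). Clusters 1, 2, 3 and 5 (3021 cells) had at least 3 of them and are called villus fibroblasts or vFB1-2-like. Only Col15a1 was higher in each of these clusters (137.8 to 355.7 CPM) than in every other cluster (at most 93.5). Shisa3 and Cp were highest in cluster 4, with Cp at 90.5 CPM against 45.1 to 84.5 in the villus clusters. Adamdec1 was at 4237 CPM in cluster 7, against 4109 to 5008 in the villus clusters. Cluster 4 (691 cells) was FB4-like with 4 of 4 markers of submucosal fibroblasts, cluster 7 (76 cells) was SMC-like with 6 of 6 smooth muscle markers, and cluster 9 (45 cells) was vFB3-like with 3 of 3 markers. Cluster 8 (70 cells) was MC-like with 8 of 8 mural cell markers, although Ano1, from the list for interstitial cells of Cajal, stood among its 10 leading genes beside Gja4. Cluster 6 (205 cells) met 7 of 8 markers of subepithelial fibroblasts (Foxl1, Sox6, Bmp5, Bmp7, Bmp3, Wnt5a and F3). The marker not met, Frzb, was lower there than in any other cluster. Sox6, Bmp5, Bmp7, Bmp3 and F3 were highest in cluster 6. Foxl1 (12.4 CPM) was higher in SMC-like (25.2) and vFB3-like cells (17.2), and Wnt5a (181 CPM) in vFB3-like cells (208). The 10 leading genes of cluster 6 included Kcnj8 and Abcc9 of the mural list and none of its own. It is therefore called the Sox6-high cluster. The summed level of 5 endothelial markers was 1.72 to 42.8 CPM across clusters with Pecam1 at 0 UMIs, that of 5 immune markers 7.46 to 55.2 CPM, and that of 4 epithelial markers at most 0.800 CPM. That of 3 platelet and megakaryocyte markers was 1.33 to 31.0 CPM, highest in vFB3-like cells, that of 3 mesothelial markers at most 0.228 CPM and that of 2 cycling markers at most 3.46 CPM. The 3 markers of interstitial cells of Cajal summed to 10.5 to 226 CPM and were highest in the Sox6-high cluster, where Etv1 gave 223 CPM, Ano1 1.20 and Kit 2.00. In MC-like cells Ano1 was at 67.4 CPM and Kit at 5.18. The part of such cells in the levels below was not tested.

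The 250 bases before the annotated start are shown for the 4 members whose levels differed most between the Amotl2-high and Amotl2-low villus fibroblasts described further on. They were taken from RefSeq on build GRCm38.p6, which gave a start for 5 of the 8 members, and each is written 5′ to 3′ on the strand of its gene. Capitals mark matches on either strand to 3 motifs that do not overlap one another in these windows. The first is GGAATG, the core of the TEAD motif through which YAP and TAZ reach DNA. The second, for TATA boxes, is TATAAA. The third, for GC boxes, is GGGCGG.
Pdgfra, chr5:75152001-75152250, plus strand: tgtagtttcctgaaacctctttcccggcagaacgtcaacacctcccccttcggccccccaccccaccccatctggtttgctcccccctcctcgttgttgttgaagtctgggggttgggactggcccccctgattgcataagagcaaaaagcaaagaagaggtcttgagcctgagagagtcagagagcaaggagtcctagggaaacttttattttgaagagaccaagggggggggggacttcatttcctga
Pdgfa, chr5:138994945-138995194, minus strand: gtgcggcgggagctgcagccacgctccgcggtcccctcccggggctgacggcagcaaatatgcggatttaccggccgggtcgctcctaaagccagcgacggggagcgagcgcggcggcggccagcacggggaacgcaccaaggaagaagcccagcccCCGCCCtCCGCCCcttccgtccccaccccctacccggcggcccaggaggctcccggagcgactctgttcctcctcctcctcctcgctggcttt
Pdgfd, chr9:6168236-6168485, plus strand: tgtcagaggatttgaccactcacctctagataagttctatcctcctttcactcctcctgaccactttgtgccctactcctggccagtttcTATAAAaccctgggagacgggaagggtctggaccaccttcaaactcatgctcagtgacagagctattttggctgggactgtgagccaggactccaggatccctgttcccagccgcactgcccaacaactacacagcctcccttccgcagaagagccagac
Pdgfc, chr3:81036166-81036415, plus strand: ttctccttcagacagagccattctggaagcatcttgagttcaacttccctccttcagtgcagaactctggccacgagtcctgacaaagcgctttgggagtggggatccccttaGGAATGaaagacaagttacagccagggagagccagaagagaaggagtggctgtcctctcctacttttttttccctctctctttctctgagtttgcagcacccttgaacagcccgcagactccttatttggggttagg

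Among these windows GGAATG stood only in that of Pdgfc, in which it was found once, and 12.6% of the 32851 RefSeq promoter windows of that length held it. TATAAA stood once in the Pdgfd window, against 12.4% of all windows. The Pdgfa window shown held GGGCGG at 2 positions and a second Pdgfa start, not shown, held it at 1, against 32.7% of all windows. No match to any of the 3 stood in the Pdgfra window. The windows also differed in base composition, with 72.4% G and C for Pdgfa, 54.4% for Pdgfra, 53.6% for Pdgfd and 50.8% for Pdgfc. A match is a description of the letters and not a binding site. By GENCODE M21 on mm10, Pdgfra lies at chr5:75152292-75198215, Pdgfa at chr5:138976014-138997370, Pdgfc at chr3:81036416-81214040, Pdgfd at chr9:6168584-6378850 and Cspg4 at chr9:56865033-56899870. Pdgfb lies at chr15:79995874-80014977 and Pdgfrl at chr8:40926212-40990785. All 8 members are protein-coding genes.

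Pdgfra, the receptor for PDGF-A and PDGF-C, was seen in 93.3% of all cells and was highest in the Sox6-high cluster. It stood there at 1978 CPM (1924 to 2034), against 409 (395 to 422) in FB4-like cells, 398 (391.6 to 405) in villus fibroblasts and 335 (290 to 386) in vFB3-like cells. MC-like cells had 124 CPM (97.3 to 157) and SMC-like cells 99.6 (78.4 to 124.9). The Sox6-high level was 5.06 times (4.90 to 5.23) that of all other cells. The Sox6-high cluster gave 5.43% of all UMIs and 22.5% of the Pdgfra UMIs. In the order of levels, FB4-like and villus fibroblasts did not differ beyond counting error (ratio 1.03, 0.988 to 1.06), nor did MC-like and SMC-like cells (ratio 1.25, 0.891 to 1.75), and the other neighbours did. Of the 8 members, 7 had at least 5 expected UMIs in the Sox6-high cluster. Pdgfra, Cspg4 and Pdgfrl were at least 2 times higher there than in all other cells, which was true of 5.63% of the 11578 genes counted the same way, and Pdgfc was at least 2 times lower, as were 12.0% of these genes.

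Single cells showed the same separation. The median was 20 Pdgfra UMIs per cell in the Sox6-high cluster with a maximum of 86, against medians of 5 in FB4-like cells, 4 in villus fibroblasts and vFB3-like cells and 0 in SMC-like and MC-like cells. Of the 109 cells with at least 20 Pdgfra UMIs, 103 (94.5%) lay in the Sox6-high cluster, and all 65 cells with at least 30 lay there. These UMI counts are not scaled for depth, and the median depth of 11829 UMIs in the Sox6-high cluster was below that of 12099 in FB4-like cells. After each cell was thinned to 5000 UMIs, 99.5% of 200 Sox6-high cells held a Pdgfra UMI, against 86.5% of 680 FB4-like, 81.6% of 2966 villus, 77.3% of 44 vFB3-like, 22.7% of 75 SMC-like and 20.4% of 49 MC-like cells. Before thinning these shares were 100%, 97.3%, 95.3%, 91.1%, 30.3% and 17.1%. The cells left out as shallower than 5000 UMIs numbered 5 Sox6-high, 11 FB4-like, 55 villus, 1 vFB3-like, 1 SMC-like and 21 MC-like, so that the thinned shares of MC-like cells rest on 49 of 70.

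**Figure D1:**
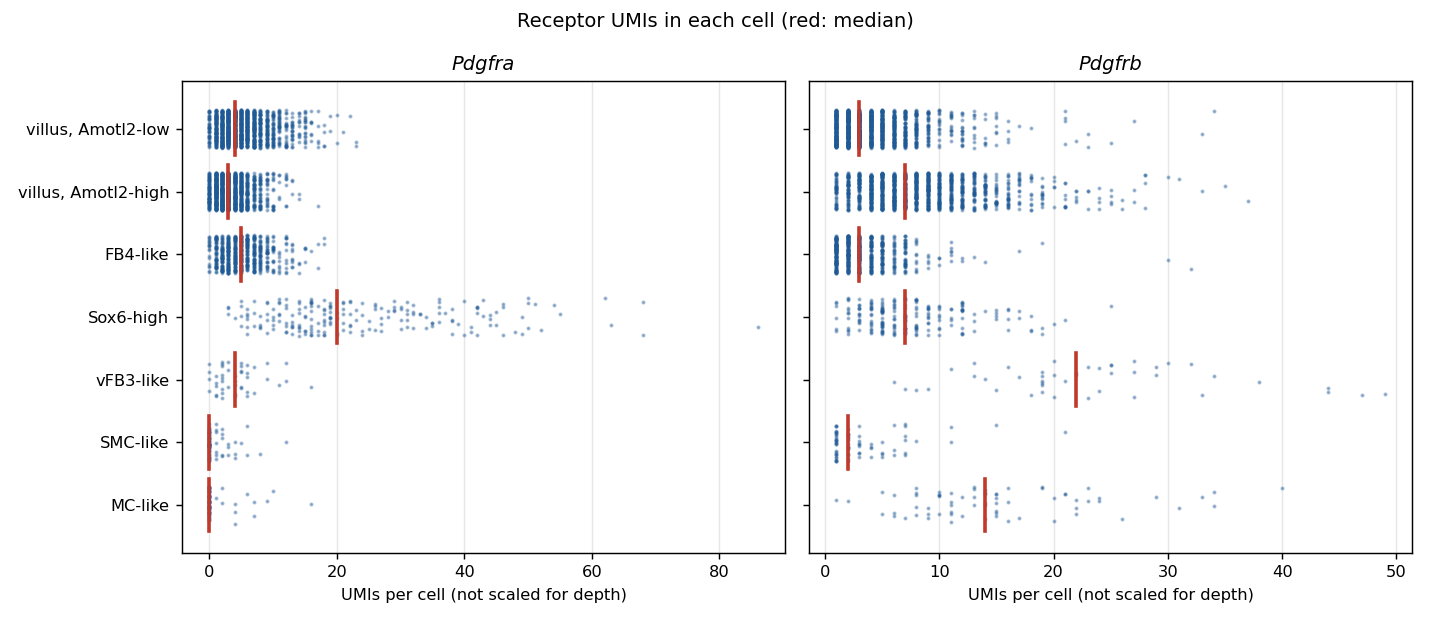
UMIs of Pdgfra (left) and Pdgfrb (right) in every cell, by cell type, with the villus fibroblasts split by Amotl2. Each dot is 1 cell, moved at random along the vertical axis within its type, and the red line is the median. The Sox6-high cells reach 86 Pdgfra UMIs around a median of 20, and no cell lies below 1 Pdgfrb UMI.

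Pdgfrb, the receptor of mural cells and the gene whose promoter drove the Cre, had at least 1 UMI in every deposited cell, and 0 of 4108 cells lacked one. It was highest in MC-like cells at 1828 CPM (1720 to 1942) and in vFB3-like cells at 1797 (1690 to 1910), which did not differ beyond counting error (ratio 1.02, 0.933 to 1.11). The Sox6-high cluster followed at 611 (580 to 642), villus fibroblasts at 553 (545 to 562), SMC-like cells at 332 (292 to 376) and FB4-like cells at 274 (263 to 285), and each of these levels differed from the next beyond counting error. In the cells marked F, a mark described further on, neither the step from Sox6-high to villus cells (ratio 1.07, 0.992 to 1.14) nor that from SMC-like to FB4-like cells (1.08, 0.906 to 1.28) did. Median UMIs per cell were 22 in vFB3-like, 14 in MC-like, 7 in Sox6-high, 5 in villus, 3 in FB4-like and 2 in SMC-like cells. The MC-like level was 3.54 times (3.33 to 3.77) and the vFB3-like level 3.48 times (3.27 to 3.70) that of all other cells. Of the 6 members with enough UMIs in vFB3-like cells, Pdgfrb alone was at least 2 times higher than in all other cells (5.98% of 8889 genes) and Pdgfrl alone at least 2 times lower (11.5%). This lower limit of 1 UMI per cell set a floor that weighed most in shallow cells with little Pdgfrb. Exactly 1 UMI was found in 38.2% of SMC-like and 22.4% of FB4-like cells, but in 1.43% of MC-like and 0 of 45 vFB3-like cells, whose lowest count was 6. A single UMI per cell corresponded to 101 CPM in SMC-like and 121 CPM in MC-like cells. With the first UMI of every cell left out, the MC-like level was 3.99 times that of all other cells, and among cells with at most 5% mitochondrial UMIs it was 5.42 times. With the first UMI out, the levels were 1707 CPM in MC-like, 1720 in vFB3-like, 231 in SMC-like and 194 in FB4-like cells. In F the SMC-like and FB4-like levels were then 185.6 and 185.7 CPM, while the step from Sox6-high to villus cells was beyond counting error (1.11, 1.02 to 1.19). After thinning, 100% of MC-like and vFB3-like cells, 90.5% of Sox6-high, 89.3% of SMC-like, 88.9% of villus and 75.6% of FB4-like cells held a Pdgfrb UMI.

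Pdgfrl encodes a secreted protein that resembles the ligand-binding part of the receptors and lacks a kinase. It was highest in FB4-like cells at 73.7 CPM (68.1 to 79.7) and in the Sox6-high cluster at 67.2 (57.4 to 78.2), which did not differ beyond counting error (ratio 1.10, 0.923 to 1.31). MC-like cells had 31.1 CPM (18.4 to 49.2) and villus fibroblasts 22.0 (20.4 to 23.6), which did not differ either (ratio 1.417, 0.835 to 2.25). vFB3-like cells had 4 UMIs or 6.88 CPM, and SMC-like cells had 2 UMIs or 2.66 CPM. The latter lay below 2.91 CPM, the bound on what free RNA could add, which was set at 8.64% of the library level from the Y-linked UMIs of cells that held 5 or more of Xist. The FB4-like level was 3.01 times (2.71 to 3.33) that of all other cells. In FB4-like cells Pdgfrl was the only one of 7 counted members at least 2 times higher than in all other cells (4.24% of 13151 genes), and Pdgfrb and Cspg4 were at least 2 times lower (8.9%). After thinning, a Pdgfrl UMI was found in 27.4% (24.0 to 30.9) of FB4-like, 25% (19.2 to 31.6) of Sox6-high and 9.95% (8.89 to 11.1) of villus cells, against 1.33% of SMC-like cells.

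Cspg4 encodes NG2, which binds PDGF-AA and is used as a marker of pericytes. The level in the Sox6-high cluster was 61.2 CPM (51.9 to 71.7) and that in MC-like cells 58.7 (40.7 to 82.1), which did not differ beyond counting error. Next came vFB3-like cells at 39.6 (25.1 to 59.4), SMC-like cells at 26.6 (16.2 to 41.0) and villus fibroblasts at 21.5 (19.98 to 23.2). From MC-like cells downward no neighbours in this order differed beyond counting error, except that FB4-like cells stood far below all others at 2.10 CPM (1.24 to 3.32), 18 UMIs in 691 cells. The villus level was 10.3 times (6.44 to 17.4) the FB4-like level. The interval of the FB4-like level included the free RNA bound of 1.80 CPM. The Sox6-high level was 3.30 times (2.76 to 3.93) that of all other cells, and the MC-like level 2.89 times (1.99 to 4.06). After thinning, 28.6% of MC-like, 26.5% of Sox6-high, 25% of vFB3-like, 10.4% of villus, 9.33% of SMC-like and 1.03% of FB4-like cells held a Cspg4 UMI.

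**Figure D2:**
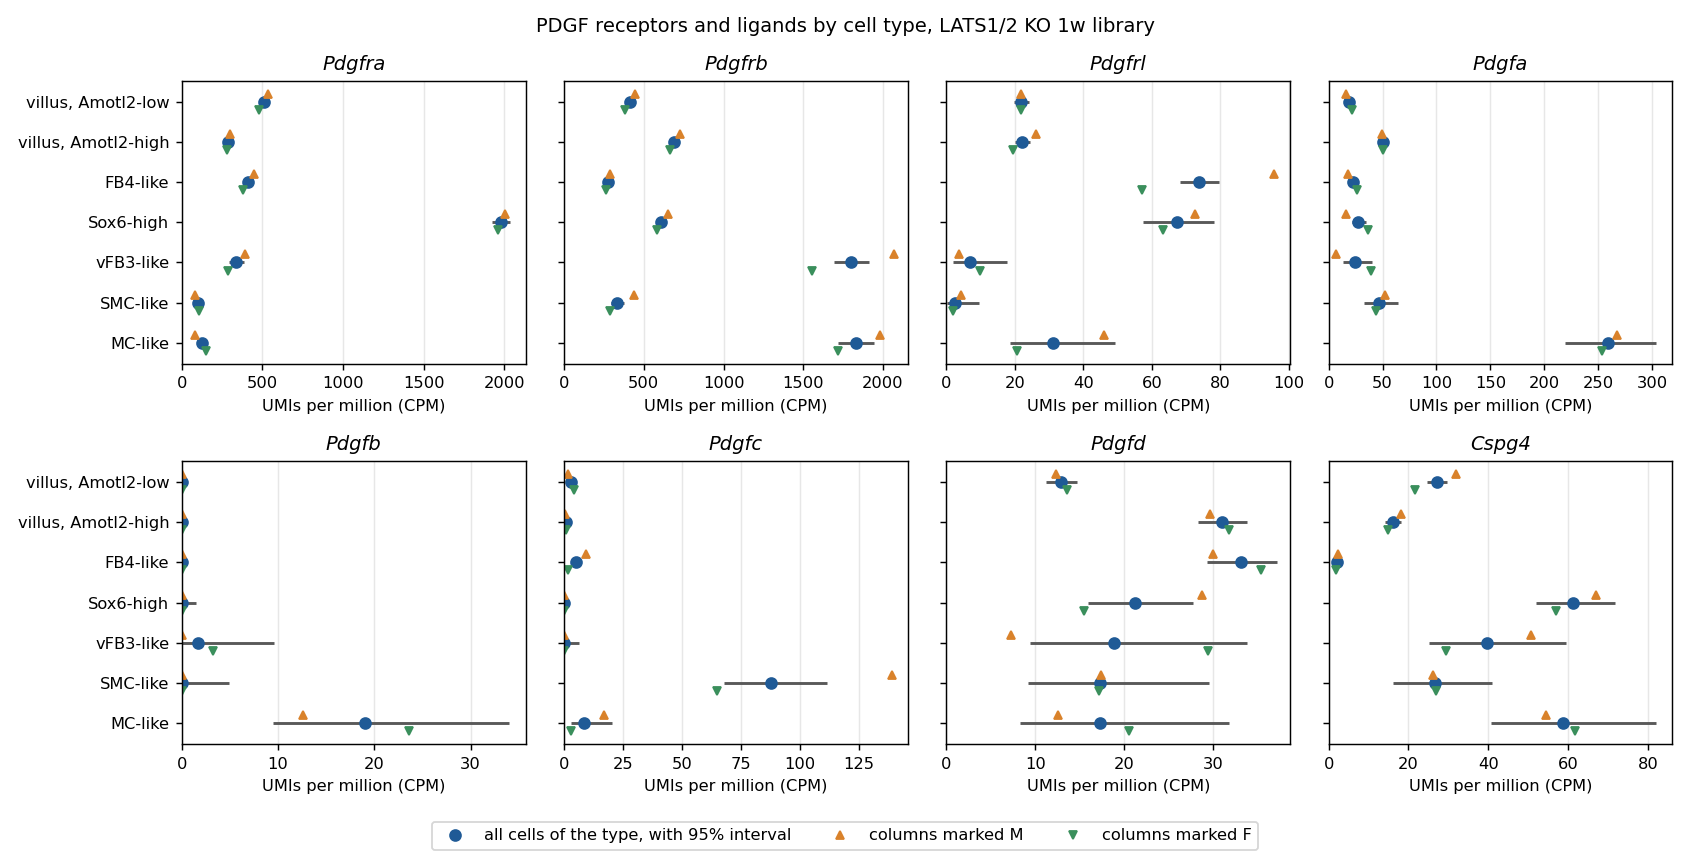
Level of each of the 8 members in CPM (horizontal axis, linear and starting at 0, with its own scale for each gene) in 7 sets of cells. Circles are all cells of the set with exact 95% Poisson intervals, and triangles are the columns marked M and F. Pdgfra peaks in the Sox6-high cluster at 1978 CPM, Pdgfa at 259 and Pdgfb at 19.0 in MC-like cells, and Pdgfc at 87.7 in SMC-like cells.

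Pdgfa, the ligand of PDGFRα, was highest in MC-like cells at 259 CPM (219 to 304), 8.12 times (6.82 to 9.62) the level of all other cells. SMC-like cells had 46.5 CPM (32.4 to 64.7), villus fibroblasts 34.5 (32.5 to 36.6), the Sox6-high cluster 27.6 (21.5 to 34.9), vFB3-like cells 24.1 (13.2 to 40.4) and FB4-like cells 22.4 (19.3 to 25.8). Below MC-like cells no neighbours in this order differed beyond counting error, but the intervals of villus fibroblasts and FB4-like cells did not overlap. The FB4-like level was 0.595 times (0.509 to 0.693) that of all other cells. MC-like cells gave 1.26% of all UMIs and 9.37% of the Pdgfa UMIs. Pdgfa was found in 51 of 70 MC-like cells, and after thinning in 65.3% (50.4 to 78.3) of them, against 21.3% of SMC-like, 14% of villus, 12.0% of Sox6-high, 10.3% of FB4-like and 9.09% of vFB3-like cells. In MC-like cells Pdgfa, Pdgfrb and Cspg4 were at least 2 times higher than in all other cells, out of 6 members counted, as were 6.69% of 8881 genes. Pdgfra was at least 2 times lower, as were 10.8% of these genes. The highest MC-like cell held 21 Pdgfa UMIs and the next 7. The ratio to all other cells was 13.2 among cells with at most 5% mitochondrial UMIs and 14.8 among cells with 8000 to 14000 UMIs.

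Pdgfb was almost absent from the sorted cells. The 12 UMIs counted in the library lay in 10 cells, 9 of them MC-like and 1 vFB3-like, and no cell held more than 2. The MC-like level was 19.0 CPM (9.49 to 34.0) and the vFB3-like level was 1.72 CPM from 1 UMI. With 11 UMIs against 1, the ratio of MC-like to all other cells was 864 with a counting interval of 126 to 37203, and it ran from 240 to 1389 over the other settings that gave a value. No Pdgfb UMI was counted in villus fibroblasts, FB4-like, Sox6-high or SMC-like cells, which allows at most 0.0907, 0.35, 1.20 and 3.99 CPM. Of the 9 MC-like cells with Pdgfb, 8 also held Pdgfa. Endothelial cells, the usual source of PDGF-B, had been depleted before the sort and removed again by the authors, and Pecam1 was at 0 UMIs in every cluster.

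Pdgfc, a ligand of PDGFRα that needs a protease to become active, was concentrated in SMC-like cells. The level there was 87.7 CPM (67.8 to 112), 37.8 times (27.4 to 52.0) that of all other cells. MC-like cells had 8.64 CPM (2.81 to 20.2), FB4-like cells 5.01 (3.63 to 6.75) and villus fibroblasts 1.72 (1.31 to 2.23). No UMI was counted in the Sox6-high cluster, which allows at most 1.20 CPM, nor in vFB3-like cells, which allows at most 5.16. The SMC-like level was 10.1 times (4.14 to 32.3) the MC-like level, and the FB4-like level was 2.91 times (1.91 to 4.40) the villus level. The latter ratio rested on the cells marked M, which held 35 of the 43 FB4-like UMIs. It was 7.96 (4.39 to 14.9) in M and 0.754 (0.304 to 1.64) in F, where the villus level was the higher one. SMC-like cells gave 1.63% of all UMIs and 38.6% of the Pdgfc UMIs, and 38 of 76 cells held at least 1. After thinning, 33.3% (22.9 to 45.2) of SMC-like cells held a Pdgfc UMI, against 2.79% of FB4-like, 0.674% of villus and none of 49 MC-like cells. Pdgfc had too few expected UMIs in SMC-like cells to enter the count over all genes there. Among the 6 members counted in those cells, none was at least 2 times higher than in all other cells (4.6% of 9551 genes) and Pdgfra and Pdgfrl were at least 2 times lower (10.2%).

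Pdgfd, a ligand of PDGFRβ that is also made inactive, was the most evenly spread member. FB4-like cells had 33.1 CPM (29.4 to 37.2), villus fibroblasts 22.0 (20.4 to 23.6), the Sox6-high cluster 21.2 (15.9 to 27.7), vFB3-like cells 18.9 (9.44 to 33.9), MC-like cells 17.3 (8.29 to 31.8) and SMC-like cells 17.3 (9.20 to 29.5). Only the step from FB4-like to villus fibroblasts exceeded counting error (ratio 1.51, 1.31 to 1.73). The FB4-like level was 1.52 times (1.33 to 1.75) that of all other cells. After thinning, a Pdgfd UMI was found in 11.8% of FB4-like, 9.68% of villus, 10.0% of Sox6-high, 15.9% of vFB3-like, 8.0% of SMC-like and 6.12% of MC-like cells, with overlapping intervals. In villus fibroblasts as a whole none of the 7 counted members was at least 2 times higher than in all other cells (3.42% of 13705 genes), and Pdgfc and Pdgfrl were at least 2 times lower (6.57%).

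The few Pdgfra UMIs of the mural and muscle clusters were not spread over all their cells. All 72 of the MC-like cluster lay in 12 of its 70 cells, whose median depth was 18600.5 UMIs against 6188.5 in the other 58. The 12 cells had more of the villus fibroblast markers Adamdec1 (1177 against 54.3 CPM) and Col15a1 (105 against 8.57 CPM), and less of the mural markers Rgs5 (525 against 3962 CPM) and Notch3 (262 against 754 CPM). Pdgfrb stood at 958 CPM (835 to 1093) in the 12 cells and at 2396 (2237 to 2564) in the 58, and Pdgfa at 114 (74.3 to 167) and 354 (295 to 422). Cspg4 did not differ beyond counting error (74.4 and 48.6 CPM, with overlapping intervals). With the 12 cells left out, the MC-like level was 4.64 times that of all other cells for Pdgfrb and 11.1 times for Pdgfa. In the SMC-like cluster all 75 Pdgfra UMIs lay in 23 of 76 cells, and these were deeper (median 14942 UMIs, against 7270 in the other 53), with more Col15a1 (114 against 6.87 CPM) and less Myh11 (1317 against 2893 CPM). Adamdec1 was high in both sets, at 4852 and 3792 CPM. Pdgfc was at 50.7 CPM (29.0 to 82.3) in the 23 cells and at 114 (84.9 to 151) in the 53. Whether droplets with more than 1 cell had a part in this was not tested.

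**Figure D3:**
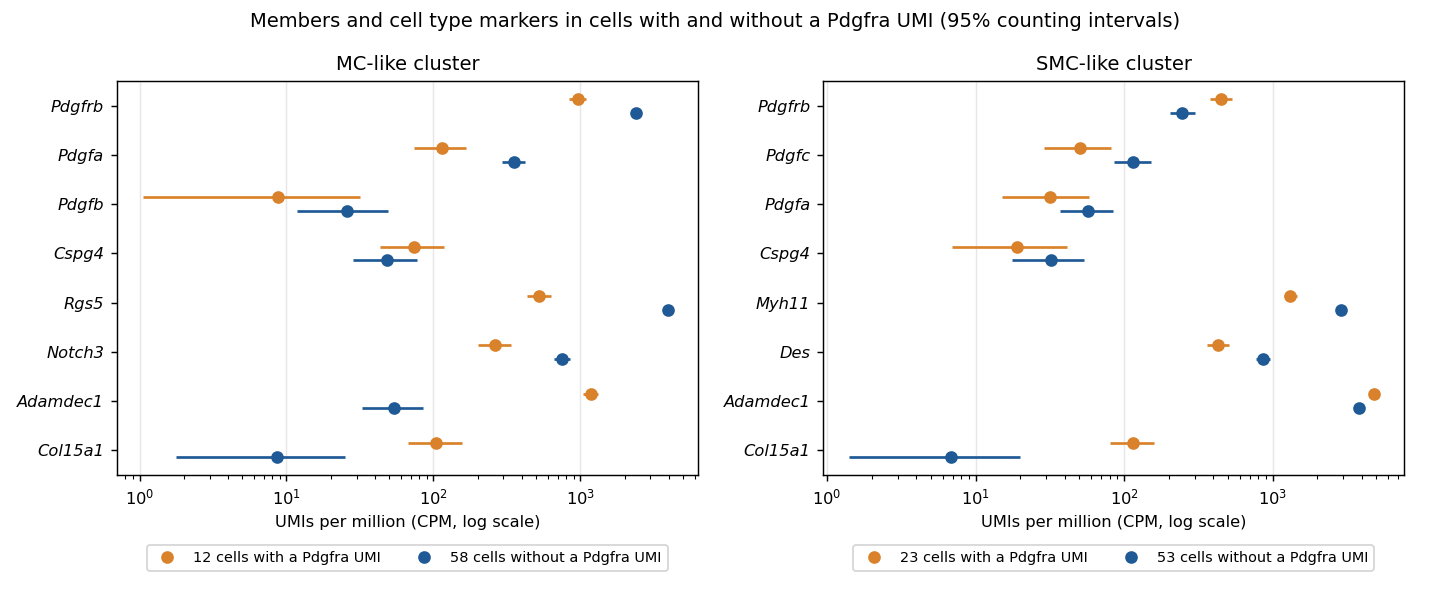
Levels in CPM (log scale) with exact 95% Poisson intervals of members and cell type markers in the cells of the MC-like (left) and SMC-like (right) clusters that held a Pdgfra UMI (orange) or none (blue). Rgs5 is at 525 CPM in the 12 orange MC-like cells and at 3962 in the 58 blue ones, while Adamdec1 runs the other way, from 1177 to 54.3.

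The 4 villus fibroblast clusters were split in the middle by their level of Amotl2, to ask how the members varied with a target of YAP and TAZ within vFB1-2-like cells. Amotl2 and other known YAP and TAZ targets had been kept out of the clustering, and the level of Amotl2 was 51.4 CPM in cluster 1, 73.6 in cluster 3, 191 in cluster 2 and 284 in cluster 5. The Amotl2-high clusters (2 and 5, 1411 cells) had more Pdgfa, Pdgfd and Pdgfrb and less Pdgfra, Cspg4 and Pdgfc than the Amotl2-low clusters (1 and 3, 1610 cells). Pdgfa was at 52.9 CPM in cluster 2 and 47.1 in cluster 5, against 19.6 in cluster 1 and 17.7 in cluster 3, a ratio of 2.68 (2.35 to 3.06) between the pooled pairs. Pdgfd was at 30.7 and 31.3 CPM against 11.02 and 15.1, a ratio of 2.41 (2.05 to 2.84). Both ligands were thus higher in either Amotl2-high cluster than in either Amotl2-low one. Pdgfrb was at 727 and 648 CPM against 480 and 341, a ratio of 1.66 (1.61 to 1.71), which was 1.90 with the first UMI of every cell left out. Pdgfra went the other way, at 224 and 359 CPM against 448 and 583, a ratio of 0.565 (0.545 to 0.585). Cspg4 was at 13.6 and 18.8 CPM against 28.8 and 25.002, a ratio of 0.594 (0.509 to 0.693). Pdgfc was counted with 11 UMIs in the Amotl2-high and 46 in the Amotl2-low cells, a ratio of 0.237 (0.111 to 0.464) that ran from 0.135 to 0.410 over other settings. Pdgfrl did not differ beyond counting error, at 22.1 against 21.8 CPM (ratio 1.01, 0.873 to 1.17), and Pdgfb had no UMI on either side. Of the 7 members counted, Pdgfa and Pdgfd were at least 2 times higher in the Amotl2-high clusters, as were 3.61% of 13725 genes, and Pdgfc was at least 2 times lower, as were 5.19%. The clusters also differed in depth, with median UMIs of 11593 per Amotl2-high and 9656 per Amotl2-low cell.

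The clusters of either Amotl2 level differed among themselves in Fos, an immediate early gene that can respond to tissue dissociation, with 104 CPM in cluster 2 and 251 in cluster 1 but 1802 in cluster 5 and 2589 in cluster 3. The study told vFB1 from vFB2 by such genes, and it also saw PDGFRβ-positive cells with Fosb in tissue that had not been dissociated. Within the pair with less Fos, cluster 2 over cluster 1, the ratio was 2.70 (2.27 to 3.24) for Pdgfa, 2.79 (2.20 to 3.55) for Pdgfd, 1.52 (1.46 to 1.58) for Pdgfrb, 0.5002 (0.474 to 0.528) for Pdgfra and 0.472 (0.377 to 0.589) for Cspg4. Within the pair with more Fos, cluster 5 over cluster 3, it was 2.66 (2.17 to 3.26) for Pdgfa, 2.08 (1.66 to 2.62) for Pdgfd, 1.90 (1.81 to 2.00) for Pdgfrb, 0.617 (0.588 to 0.647) for Pdgfra and 0.753 (0.603 to 0.939) for Cspg4. These 5 members and Pdgfc kept their direction in both pairs, whereas Pdgfrl was at 0.798 (0.639 to 0.996) in the first and 1.23 (1.003 to 1.51) in the second. After thinning, Pdgfa was found in 20.9% (18.7 to 23.1) of Amotl2-high and 8.01% (6.72 to 9.46) of Amotl2-low cells, Pdgfd in 14.05% (12.3 to 15.99) and 5.87% (4.76 to 7.14), and Pdgfra in 73.4% (70.9 to 75.7) and 88.8% (87.2 to 90.3).

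FB4-like cells gave a second setting for this comparison, chosen after the values had been seen. At a clustering resolution of 1.0 they formed 1 cluster of 505 cells with 77.5 CPM of Amotl2 and 1 of 184 cells with 365 CPM. Pdgfa was at 13.96 CPM in the first and 43.4 in the second, a ratio of 3.11 (2.32 to 4.19), and Pdgfd at 23.2 and 58.1, a ratio of 2.51 (1.97 to 3.19). Pdgfrb was at 251 and 333 CPM (ratio 1.33, 1.22 to 1.45) and Pdgfra at 459 and 284 (ratio 0.619, 0.569 to 0.672). These 4 members thus differed in the same direction as in villus fibroblasts. Pdgfc, with 30 and 13 UMIs, did not differ beyond counting error there (ratio 1.07, 0.513 to 2.12), nor did Pdgfrl (1.14, 0.963 to 1.36) or Cspg4, which had only 15 and 3 UMIs. Whether the ratios of Pdgfc differ between the villus and FB4-like cells was not tested.

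**Figure D4:**
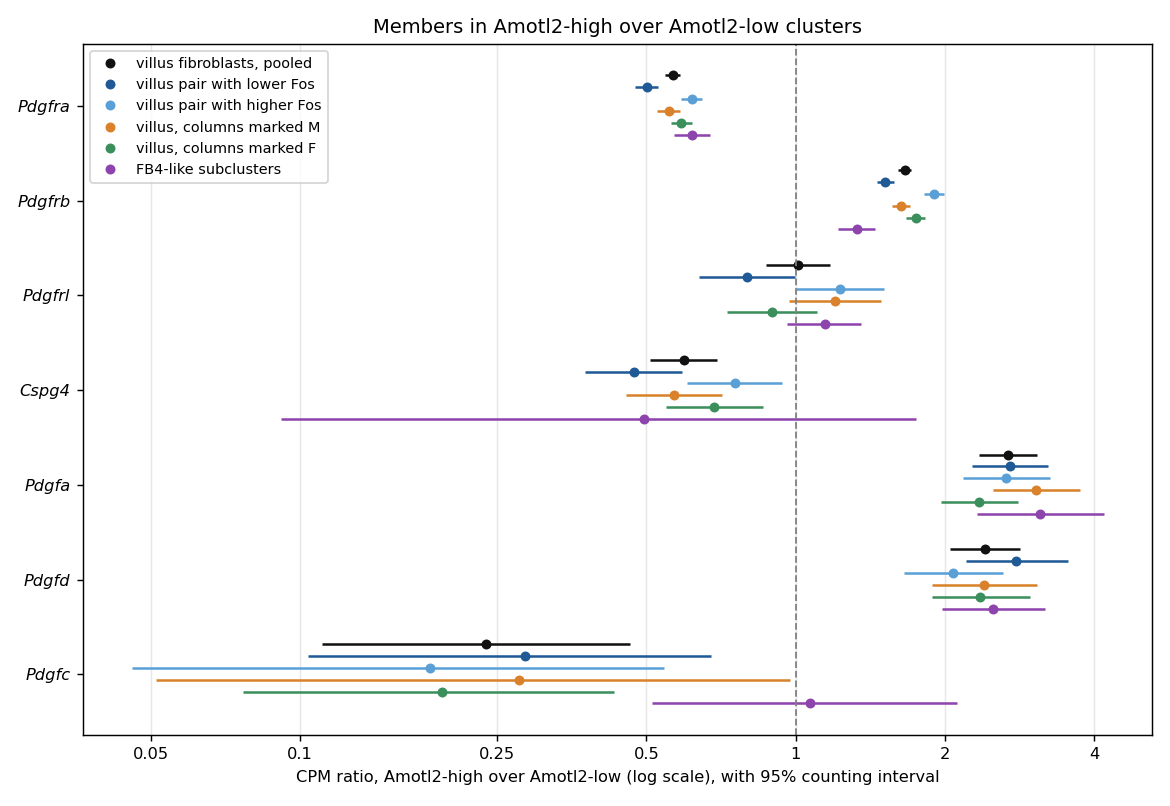
Ratio of CPM in Amotl2-high over Amotl2-low clusters (horizontal axis, log scale, dashed line at 1) for 7 members, with exact conditional binomial 95% intervals. Colours give the pooled villus clusters, the 2 villus pairs, the columns marked M and F, and the FB4-like subclusters. All 6 intervals of Pdgfa, Pdgfd and Pdgfrb lie above 1 and all 6 of Pdgfra below it, while those of Pdgfrl lie on both sides.

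The cell names of the file carried the marks M and F, and by the study's methods cells were divided by whether they held Xist. All 2125 cells marked F and none of the 1983 marked M held an Xist UMI, so M can also hold female cells in which no Xist UMI was read. A Y-linked UMI was found in 1545 of the cells marked M and in 116 of those marked F, and 438 cells marked M held neither. Sex and animal cannot be told apart in this split, and cells marked M were shallower (median 10006 against 11473 UMIs). Pdgfa was lower in M cells of the Sox6-high cluster (15.8 against 36.5 CPM, ratio 0.433, 0.235 to 0.760), of FB4-like cells (0.677, 0.494 to 0.920) and of villus fibroblasts (0.802, 0.711 to 0.905). It was also lower in M among vFB3-like cells, with 2 against 12 UMIs (0.185, 0.0201 to 0.829). In MC-like cells Pdgfa did not differ beyond counting error (1.06, 0.753 to 1.48). Among villus fibroblasts, 567 of 1494 cells in M and 844 of 1527 in F were Amotl2-high. The Pdgfa ratio was 0.994 (0.861 to 1.15) in the Amotl2-high and 0.760 (0.603 to 0.957) in the Amotl2-low clusters. In FB4-like cells Pdgfrl was higher in M (95.6 against 57.1 CPM, ratio 1.67, 1.43 to 1.96), and so was Pdgfc with 35 against 8 UMIs (ratio 5.79, 2.64 to 14.4). Pdgfc was also higher in M among SMC-like cells (139 against 65.1 CPM, ratio 2.14, 1.28 to 3.57), but lower in M among villus fibroblasts (1.19 against 2.17 CPM, ratio 0.548, 0.295 to 0.982). In villus fibroblasts Cspg4 was higher in M (26.1 against 17.7 CPM, ratio 1.47, 1.27 to 1.71). Pdgfrb was higher in M in all 6 cell types, by 1.03 to 1.54 times, but beyond the first UMI of each cell the interval excluded 1 only in vFB3-like, SMC-like and MC-like cells. The split of villus fibroblasts by Amotl2 gave a Pdgfa ratio of 3.06 (2.505 to 3.76) in M and 2.34 (1.96 to 2.81) in F, and a Pdgfd ratio of 2.40 and 2.35. Of the steps between neighbouring cell types that exceeded counting error in the library, those of Pdgfra from villus to vFB3-like cells (1.11, 0.918 to 1.36) and of Pdgfrl from Sox6-high to MC-like cells (1.58, 0.834 to 3.29) did not do so in M alone. That of Pdgfrl from villus to vFB3-like cells (2.09, 0.711 to 10.2) did not do so in F alone, besides those of Pdgfrb and Pdgfc given above and that of Pdgfb, which had too few UMIs in either.

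Pairs of members in single cells were counted after thinning. In villus fibroblasts 72.2% (70.5 to 73.8) of cells held both Pdgfra and Pdgfrb, against a product of the single shares of 72.6%. Since every deposited cell held a Pdgfrb UMI, a cell lacked Pdgfrb here only through the thinning, so that pairs with Pdgfrb are values only and say nothing of whether the members occur together. In FB4-like cells both were held by 65.9% (62.2 to 69.4) against 65.4%, and in the Sox6-high cluster by 90.0% (85.0 to 93.8) against 90.0%. Pdgfra was less frequent in cells with Pdgfa than in cells without it, both in villus fibroblasts and in FB4-like cells. In villus fibroblasts it was held by 310 of 415 cells with Pdgfa (74.7%, 70.2 to 78.8) and by 2111 of 2551 without (82.8%, 81.2 to 84.2). In FB4-like cells the shares were 72.9% (60.9 to 82.8) of 70 cells with Pdgfa and 88.0% (85.2 to 90.5) of 610 without. These intervals do not overlap in either type. In the Amotl2-high villus clusters, taken alone, the shares were 67.4% (61.6 to 72.7) and 74.9% (72.3 to 77.5), with intervals that overlap slightly. The Amotl2-low clusters went the other way, at 91.3% (85.0 to 95.6) and 88.6% (86.9 to 90.2), also with overlap. The FB4-like shares were not split in this way. Between the FB4-like subclusters Pdgfa (ratio 3.11) and Pdgfra (ratio 0.619) differed in opposite directions. In MC-like cells Pdgfra was held by 3 of 32 cells with Pdgfa (9.38%, 1.98 to 25.02) and by 7 of 17 without (41.2%, 18.4 to 67.1). The part of droplets with more than 1 cell in these shares was not tested. For the other ligand and receptor pair, Pdgfrb was held by 260 of 287 villus fibroblasts with Pdgfd (90.6%, 86.6 to 93.7) and by 88.8% (87.5 to 89.9) of those without. Over all cells Pdgfra was held by 37 of 64 cells with Pdgfc (57.8%, 44.8 to 70.1) and by 81.8% (80.6 to 83.0) of those without. Pdgfa and Pdgfd occurred together in 68 cells of the library, with a product of 56.3, and in 41 Amotl2-high villus cells, with a product of 40.5.

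The pathway list held 42 genes for ligand processing, ligand retention, receptor signalling and receptor turnover, all of which were in the file. Between Amotl2-high and Amotl2-low villus fibroblasts 40 of them could be counted, none was at least 2 times higher and 1 was at least 2 times lower, against 3.61% and 5.19% of all genes counted. That gene was Plat, the tissue plasminogen activator that can activate PDGF-C, at 12.6 against 26.9 CPM (ratio 0.469, 0.396 to 0.554). The median ratio of the list was 0.910, against 0.972 over all 13725 genes counted. In the Sox6-high cluster 2 of 39 were at least 2 times higher than in all other cells and 5 lower, shares near the 5.63% and 12.0% of all genes, with a median ratio of 0.988 for the list and 1.01 for all genes. The higher ones were the proprotein convertase Pcsk6 (212 against 43.9 CPM, ratio 4.84, 4.38 to 5.33) and Plat (86.0 against 31.5 CPM, ratio 2.73, 2.36 to 3.16). Lower by the most were Nrp1, a co-receptor (36.4 against 217 CPM, ratio 0.168), the Src-family kinase Fyn (20.01 against 87.9 CPM, ratio 0.228) and the convertase Pcsk5 (54.8 against 193 CPM, ratio 0.284). FB4-like cells had 1 of 41 at least 2 times higher, again Plat (81.5 against 23.7 CPM, ratio 3.44, 3.11 to 3.81), and 2 lower, the adaptor Nck2 and the scaffold gene Slc9a3r2, against 4.24% and 8.9% of all genes.

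vFB3-like and MC-like cells, which had the most Pdgfrb, also had the most Slc9a3r2, whose product is known to bind PDGF receptors, at 463 and 242 CPM. In vFB3-like cells 3 of 37 pathway genes were at least 2 times higher than in all other cells, namely Slc9a3r2 (ratio 4.06, 3.58 to 4.59) and the phosphatases Ptprj (3.84, 2.49 to 5.70) and Ptpn2 (2.21, 1.47 to 3.19), both known to act on PDGFRβ. Another 7 were at least 2 times lower, led by Fyn (0.162, 0.0698 to 0.319) and Plat (0.247, 0.0802 to 0.578), and the list's median ratio was 1.18 against 1.07 over all genes. Of all genes counted there, 5.98% were at least 2 times higher and 11.5% lower. In MC-like cells 1 of 37 was at least 2 times higher (Slc9a3r2, 2.07, 1.74 to 2.45) and 5 lower, against 6.69% and 10.8% of all genes, with a median of 0.891 against 0.993. The 5 were the convertases Pcsk5 and Pcsk6, the protease Plat, the heparan sulfate proteoglycan Hspg2 and Fyn. In SMC-like cells Nck2 was the 1 of 38 at least 2 times higher, with 12 UMIs, and 5 were lower, against 4.6% and 10.2% of all genes. Among the lower ones were Plat (ratio 0.152), the co-receptors Nrp1 (0.311) and Lrp1 (0.386) and the matrix protein Sparc (0.381), which binds PDGF-B. Villus fibroblasts had 2 of 41 at least 2 times lower, against 6.57% of all genes, namely Plat and the urokinase gene Plau, which can activate PDGF-D and had 3 UMIs there against 42 in all other cells.

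As a description over 9 points from 1 library, Pearson's r of log2(CPM + 1) was taken over the 9 clusters. For the 6 members with at least 500 UMIs, the genes with the highest r are named here. For Pdgfra they were Chic2 (r = 0.972), Hpcal1 (0.945) and Cd164 (0.943), and for Pdgfrb Babam1 (0.979), Apbb2 (0.969) and Rab10 (0.961). For Pdgfrl they were Tlr4 (0.949), Cr1l (0.936) and Adamtsl1 (0.928), and for Cspg4 Got2 (0.947), Sh3bgrl (0.9404) and Tbx2 (0.938). For Pdgfa they were Plcl1 (0.971), Hspb2 (0.933) and Cstf3 (0.928). For Pdgfd, whose levels varied little between cell types, they were Vgll3 (0.902), which encodes a partner of TEAD factors, Pdlim2 (0.835) and Gulp1 (0.835). Such an r does not depend on the size of the changes. Babam1 ran only from 40.8 to 58.5 CPM over the clusters, against 274 to 1828 for Pdgfrb. Got2 ran from 35.8 to 55.3 CPM, against 2.10 to 61.2 for Cspg4. Chic2, the gene with the highest r to Pdgfra, lies at chr5:74997988-75044774, so that its end and the start of Pdgfra are 107518 bases apart on mm10.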

How the data were processed

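The authors mapped the 3-prime reads to mm10 using Cell Ranger 3.0.2, and Seurat was used on the UMI counts (3.0.1 by the submitters' processing notes, another version by the study's methods). By their stated filter a cell had 1000 to 6000 genes and no more than 7% of UMIs from mitochondria, a gene had to occur in 3 cells, and immune and endothelial cells were discarded. The deposited values were natural log values, ln(1 + UMIs / cell total × 10000), and whole UMI counts were read back from them (100% of nonzero values, tolerance 0.001). All 4108 cells lay inside that filter. The members and lists were chosen with earlier results of these data known.

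Cells were clustered in Seurat 5.3.0 (R 4.3.3) on 2000 variable genes without the members, the pathway list, YAP and TAZ targets and sex-linked genes. Depth and mitochondrial share were regressed out, 30 components were kept, and the resolution was 0.5. A marker was counted in a cluster if 10% of its cells held a UMI and its CPM reached 2 times the median over other clusters (over clusters 4, 6, 7, 8 and 9 for the villus list). A name needed 3 counted markers, more than 50% of the list, and no fewer own than foreign markers among the 10 leading genes. These naming rules were set after cluster levels had been seen. Counts over all genes took genes with at least 5 expected UMIs in each set of cells. Genes named were the members, the markers, up to 5 pathway genes past a fold of 2 for each comparison and the 3 genes most like each member, with Fip1l1, Lnx1, Kit and Fos added after their values had been seen. A check of single cells in the MC-like cluster and 1 marker list are not reported here. Shares followed thinning of each cell to 5000 UMIs, with exact Clopper-Pearson intervals (scipy 1.17.1). Scrublet (scanpy 1.11.5) marked 8 cells (0.195%), too few for a working caller, and no cell was removed. The ratio code was tested on simulated counts. No p-value was computed from 1 library.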

Additional observations from a re-analysis of the deposited data

How the results depend on the processing

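No paired analysis was possible because 1 library was analysed and no result came from a test. Of 15 ratios, 14 kept their direction in every setting that gave a value, and that of Pdgfrl between Amotl2-high and Amotl2-low villus clusters turned from 1.01 to 0.896 in F. In all, 155 values lay within the counting interval of the main one while 30 did not. Pdgfb gave no ratio with at most 5% mitochondrial UMIs, in M alone, with 8000 to 14000 UMIs or after subtraction of free RNA. The causes of the moves below were not tested. The settings that left out the first Pdgfrb UMI or the cells with a Pdgfra UMI, and the cluster pairs, FB4-like subclusters and neighbouring cell types within M and F, were chosen after seeing the data.

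Pdgfra in the Sox6-high cluster (5.06) became 4.73 with at most 5% mitochondrial UMIs, 4.68 in M, 5.43 in F, 4.63 with 8000 to 14000 UMIs, 4.88 as a mean over cells and 5.54 after subtraction of free RNA. Pdgfrb in MC-like cells (3.54) became, in the same settings without M and F, 5.42, 5.18, 4.37 and 3.79, then 4.64 without cells holding Pdgfra and 3.99 without the first UMI. Pdgfrl in FB4-like cells (3.01) became 3.61 in M, 2.497 in F and 3.38 with 8000 to 14000 UMIs. Pdgfa in MC-like cells (8.12) became 13.2 with at most 5% mitochondrial UMIs, 9.82 in M, 14.8 with 8000 to 14000 UMIs and 11.1 without cells holding Pdgfra. Cspg4 in the Sox6-high cluster (3.30) became 3.94 with at most 5% mitochondrial UMIs. Between Amotl2-high and Amotl2-low villus clusters, Pdgfra (0.565) became 0.587 in F, 0.602 with 8000 to 14000 UMIs and 0.527 after subtraction of free RNA. There Pdgfrb (1.66) became 1.71 with at most 5% mitochondrial UMIs, 1.75 in F, 1.74 both with 8000 to 14000 UMIs and after subtraction, and 1.90 without the first UMI. Pdgfrl (1.01) became 1.20 in M and 0.896 in F, and Pdgfa (2.68) became 2.34 in F.

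Shares of cells moved with thinning. At 2000 UMIs they were 95.1% for Pdgfra and 10.7% for Cspg4 in the Sox6-high cluster, 12.4% for Pdgfrl and 6.08% for Pdgfd in FB4-like cells, 40.0% for Pdgfa and 2.86% for Pdgfb in MC-like cells and 19.7% for Pdgfc in SMC-like cells. Without thinning they were 100% for Pdgfra, 48.3% for Cspg4, 43.3% for Pdgfrl, 29.7% for Pdgfd and 50% for Pdgfc in those cells.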

Other observations

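Chic2 and Fip1l1, which lie upstream of Pdgfra on chromosome 5, had their highest level in the Sox6-high cluster, where Pdgfra itself was highest. Chic2 was at 269 CPM there, against 102 to 163 CPM in the other 8 clusters and a ratio of 1.82 (1.68 to 1.97) to all other cells. Fip1l1, whose end lies 553492 bases before the start of Pdgfra, was at 154 CPM, against 65.4 to 110 CPM, with a ratio of 2.00 (1.80 to 2.23). Both were also lower in the Amotl2-high than in the Amotl2-low villus fibroblasts, with ratios of 0.867 (0.819 to 0.918) and 0.786 (0.726 to 0.849), beside 0.565 for Pdgfra. Within cluster 5 over cluster 3 the interval of Fip1l1 included 1 (0.898, 0.800 to 1.01), as did those of both genes in the FB4-like subclusters. The other genes looked at near Pdgfra had few UMIs. Lnx1, which overlaps the end of Fip1l1 on the opposite strand, had 7 in the library and was highest in the Sox6-high cluster at 1.601 CPM. Kit had 17 and Kdr 35, and both were highest in MC-like cells at 5.18 CPM, against 2.00 and 1.20 CPM in the Sox6-high cluster. These genes were looked at after the likeness of Chic2 to Pdgfra had been seen.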
